A study of Homo sapiens with 6 samples.

Results

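*ACYP1* and *ACYP2* are the acylphosphatase genes of the human genome, and each was measured by 1 probeset of the 16569 that were deposited, a probeset being a set of short probes for a transcript. The members were taken as all probesets that the platform annotation assigns to either gene, which gave 2 probesets, 205260_s_at for *ACYP1* and 206833_s_at for *ACYP2*, with no probeset shared with another gene. The pair was chosen on the measured difference of *ACYP2* between *USF1* over-expressing and control cells, so the differences of both genes between these groups are given as a description, with no test. The samples were HEK293T cells, a human embryonic kidney line with the large T antigen of SV40. They were transiently transfected either with a plasmid that expresses the polyhistidine-tagged coding region of *USF1* (USF1) or with the same plasmid lacking it (Empty vector), and 3 arrays per group were made from total RNA collected 48 hours later. The protein made from the plasmid adds to the *USF1* protein that the line already has. Values are RMA expression values, which are on the log2 scale, so a difference of 1 is a doubling.

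Acylphosphatases are small cytosolic enzymes that cleave the bond between a carboxyl group and phosphate. Such acyl phosphates occur as the glycolytic intermediate bisphosphoglycerate, as carbamoyl phosphate, which feeds the urea cycle and pyrimidine synthesis, and as the phosphorylated aspartate that P-type ATPases form while they pump ions or turn lipids over. *ACYP1* encodes the form known from erythrocytes and many organs, and *ACYP2* the form known from skeletal muscle. *USF1* encodes a transcription factor that binds E-boxes, of which CACGTG is its best known form, and the windows around the start sites are therefore shown for both genes.

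The windows run from 250 bases before to 50 bases after a RefSeq start site (build GRCh38.p14), 5′ to 3′ on the strand of the gene, with each match to the general E-box CANNTG in capitals. RefSeq lists 3 start sites for *ACYP2*, on the plus strand of chromosome 2, at chr2:53970863-53971162 for the first window, chr2:54115365-54115664 for the second and chr2:54123033-54123332 for the third. It lists 2 for *ACYP1*, on the minus strand of chromosome 14, with the first window at chr14:75069441-75069740.
ACYP2 at the first start: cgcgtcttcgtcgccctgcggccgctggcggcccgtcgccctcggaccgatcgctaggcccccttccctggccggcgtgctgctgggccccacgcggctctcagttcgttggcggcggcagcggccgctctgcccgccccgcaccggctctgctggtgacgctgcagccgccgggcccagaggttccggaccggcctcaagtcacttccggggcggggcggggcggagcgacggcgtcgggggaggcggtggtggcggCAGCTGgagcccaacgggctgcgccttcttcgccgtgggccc
ACYP2 at the second start: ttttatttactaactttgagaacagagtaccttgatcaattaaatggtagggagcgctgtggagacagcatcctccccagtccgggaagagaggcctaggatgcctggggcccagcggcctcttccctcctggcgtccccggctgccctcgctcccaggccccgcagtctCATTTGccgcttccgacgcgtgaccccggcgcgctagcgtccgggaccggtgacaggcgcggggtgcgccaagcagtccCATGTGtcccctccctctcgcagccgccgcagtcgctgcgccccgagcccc
ACYP2 at the third start: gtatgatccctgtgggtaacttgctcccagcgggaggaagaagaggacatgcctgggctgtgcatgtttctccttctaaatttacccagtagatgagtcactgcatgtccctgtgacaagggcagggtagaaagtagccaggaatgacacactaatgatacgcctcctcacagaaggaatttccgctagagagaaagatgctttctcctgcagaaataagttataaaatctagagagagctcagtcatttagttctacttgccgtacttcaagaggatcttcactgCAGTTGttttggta
ACYP1 at the first start: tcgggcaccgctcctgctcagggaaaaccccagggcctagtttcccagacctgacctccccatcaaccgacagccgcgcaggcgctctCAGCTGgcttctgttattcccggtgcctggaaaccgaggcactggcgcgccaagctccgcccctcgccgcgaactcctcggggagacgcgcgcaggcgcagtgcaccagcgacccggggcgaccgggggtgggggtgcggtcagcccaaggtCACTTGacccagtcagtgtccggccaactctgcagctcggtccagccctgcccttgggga

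CACGTG was found in 0 of these windows and 0 times in that of the second *ACYP1* start, and TCACGTG, which contains it, was likewise found 0 times, both strands searched. Of all 35116 RefSeq windows of the same length, 7.26% hold CACGTG and 3.71% TCACGTG. The general form CANNTG, which includes both, is in 68.7% of all windows. The first *ACYP2* window holds 1 match, CAGCTG, beginning at base 9 after the start, and the third also holds 1, CAGTTG. The second holds CATTTG and CATGTG, the latter beginning at base -1, just before the start. The first *ACYP1* window holds 2 as well, CAGCTG at base -162 and CACTTG at base -10. The first *ACYP2* window is rich in G and C, at 77.7% against a median of 58.7% over all windows, while the third has 45.7%. Which start HEK293T cells use was not measured, and the sources used here do not place the probes in the transcripts. A missing match says only that these letters are absent from the window.

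Empty vector replicate 1 stood apart, with an SD over all probesets of 0.336 from each other Empty vector array, where those differed by 0.182 and the USF1 arrays by 0.149 to 0.222. The control value of actin, 5′ minus 3′ probeset, was lower in Empty vector replicate 1 (-1.34) and replicate 2 (-1.04) than in the other 4 arrays (-0.681 to -0.493). The same value of *GAPDH* was low only in Empty vector replicate 1 (-0.582), with replicate 2 (-0.316) within the range of the other arrays (-0.345 to -0.256). The part of RNA quality in the differences below was not tested, and each member is given also without these arrays. The probeset named for *USF1* had a mean of 4.79 ± 0.13 (SD, n = 3 arrays) with the plasmid of *USF1* and 4.86 ± 0.43 (SD, n = 3) with the empty one. Because the plasmid carries the coding region alone and the place of these probes is not known here, this is no check of the plasmid's transcript. The paper's own check of the over-expression was a western blot, with antibodies to the polyhistidine tag and to the *USF1* protein. Of 10 marker genes of the HEK293 line, 6 were measured, and *KRT8*, *KRT18*, *PAX2* and *LHX1* are not analysed here. In Empty vector cells the neurofilament genes *NEFM* and *NEFL* stood at 10.34 and 7.99, vimentin, *VIM*, at 10.05 and *INA* at 6.42. The markers *CDH2* (5.82) and *PAX8* (5.29) lay below the median of each Empty vector array. Of the listed markers of fat cells, macrophages and leukocytes, and endothelium, 0 were measured, and of 9 for skeletal muscle only *TNNT1*, a troponin, which had a log2 difference of -0.15 (SE 0.13). The sources used here do not say whether each array had a transfection of its own, so errors and p-values cover only how these arrays vary, and that may be technical.

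*ACYP2* was far higher in cells that over-expressed *USF1*. Its value was 7.56 in USF1 replicate 1, 7.25 in replicate 2 and 7.77 in replicate 3, against 4.83, 4.70 and 4.57 in the Empty vector arrays. All 3 USF1 arrays lay above all 3 Empty vector arrays, and the lowest of the former was 2.42 above the highest of the latter. The mean was 7.53 ± 0.26 (SD, n = 3) with *USF1* and 4.70 ± 0.13 (SD, n = 3) without it. This gives a log2 difference of 2.83 (moderated SE 0.14), or a 7.09-fold higher value. The paper's list of differing genes also holds this probeset as higher with *USF1*. Its smaller fold-change there equals the ratio of these mean log2 values. The Empty vector mean lay below the median of each Empty vector array, the lowest being 5.96 in replicate 3. The authors' filter dropped probesets called absent on most arrays, so a probeset absent in Empty vector cells alone could stay. Whether *ACYP2* was detected in Empty vector cells was not tested, and the fold is a ratio of array values only. The arrays of a group were spread over 0.52 in USF1 and 0.26 in Empty vector cells, so the distance between the groups was several times the spread within either. In the 9 pairings of a USF1 with an Empty vector array the difference ran from 2.42 to 3.20. The difference was 2.89 without Empty vector replicate 1, and 2.95 without both Empty vector arrays of low actin value, which leaves 1 array in that group, assumed to vary like the others.

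*ACYP1* was lower in USF1 cells, by much less. Its value was 7.03 in USF1 replicate 1, 6.95 in replicate 2 and 6.90 in replicate 3, against 7.53, 7.31 and 7.33 in the Empty vector arrays. The groups again did not overlap, with a gap of 0.28 between the highest USF1 and the lowest Empty vector array. The mean was 6.96 ± 0.06 (SD, n = 3) with *USF1* and 7.39 ± 0.12 (SD, n = 3) without it, which gives a log2 difference of -0.43 (moderated SE 0.09), or a 1.34-fold lower value. Empty vector replicate 1 held the highest *ACYP1* value, and the difference was -0.36 without it and -0.37 without both Empty vector arrays of low actin value. Arrays of the 2 groups did not overlap in 36.1% of all probesets, so that nothing is read from the separation of the members itself. As the values of different probesets are not comparable as levels, it cannot be said from these arrays which of the genes had more transcript in either group.

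**Figure D1:**
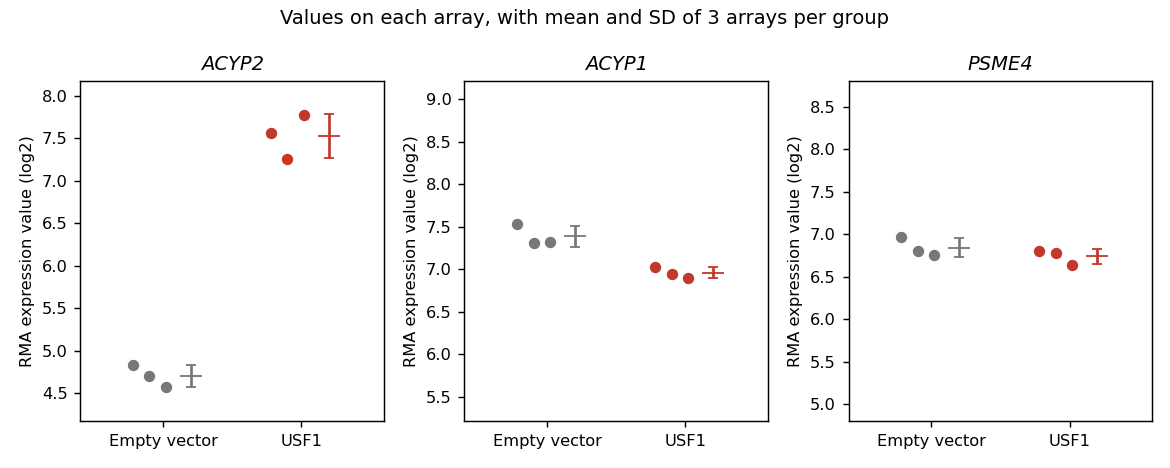
RMA expression values (log2, vertical axis, each spanning 4 units) of *ACYP2*, *ACYP1* and the *ACYP2* neighbour *PSME4*, 1 point per array, the Empty vector ones grey and the USF1 ones red, with the mean and SD of 3 arrays beside them. The USF1 arrays of *ACYP2* lie at 7.25 to 7.77, above Empty vector arrays at 4.57 to 4.83, while those of *ACYP1* lie slightly below and those of *PSME4* overlap.

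The members stood at very different places among the differences of the array. *ACYP2* had the largest difference of all 16569 probesets, in either direction. The next, 2.37 (SE 0.18), belonged to a probeset assigned to more than 1 gene, and only 6 probesets reached a difference of 2. Ranked within single pairings of arrays, *ACYP2* came first in 5 of 9 and no lower than place 13. The 4 pairings in which it was not first were the 3 with Empty vector replicate 1 (places 13, 10 and 7) and that of USF1 replicate 2 with Empty vector replicate 2 (place 3). For *ACYP1*, 1157 probesets had a more negative difference and 1905, or 11.5% of all, a larger one in either direction. *ACYP1* was thus one of many genes with a modest negative difference, on arrays whose median difference was itself -0.065. After a further quantile normalization the difference of *ACYP1* was -0.36 and after centring each array on its median -0.36, and that of *ACYP2* was 2.88 and 2.89.

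**Figure D2:**
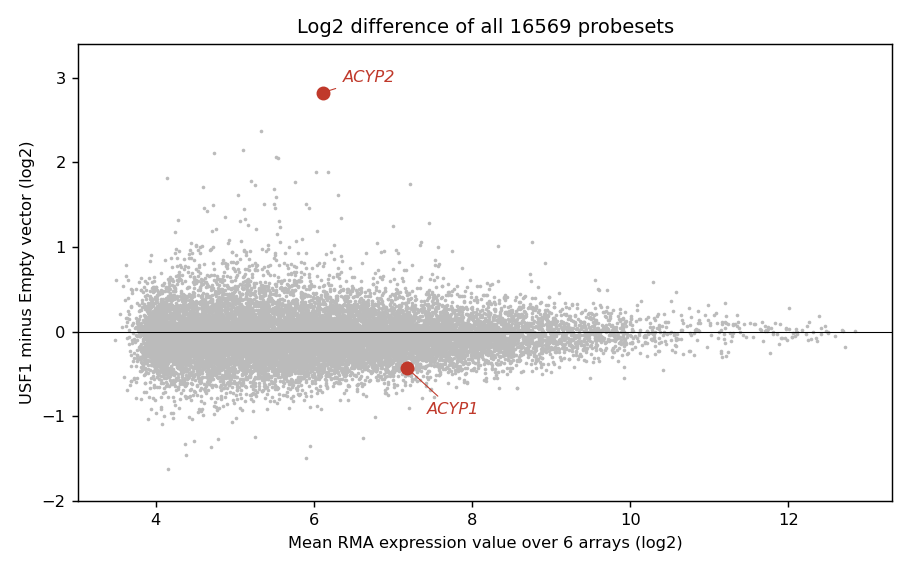
Log2 difference, USF1 minus Empty vector (vertical axis), against the mean RMA expression value over 6 arrays (log2, horizontal axis), 1 grey point for each of 16569 probesets, with the members in red. *ACYP2* is the uppermost point at 2.83, and *ACYP1* lies inside the cloud at -0.43.

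The nearest measured genes on the chromosome are described beside *ACYP2*. As *ACYP2* had the largest difference of all probesets, none of them could match its size, and nothing is read from that gap. *PSME4*, which encodes an activator of the proteasome, starts on the opposite strand so close to *ACYP2* that their first windows have 219 bases in common. *PSME4* had values of 6.80, 6.77 and 6.64 in USF1 and 6.96, 6.80 and 6.76 in Empty vector arrays at its brighter probeset. These overlap, and the log2 difference was -0.10 (SE 0.09, limma adjusted p-value = 0.492). Its dimmer probeset had a difference of 0.21 (SE 0.24), with the lowest value on Empty vector replicate 1. *SPTBN1*, a spectrin and the nearest measured gene on the other side, had a difference of 0.19 (SE 0.10, limma adjusted p-value = 0.231). The 10 measured neighbours of *ACYP2* were taken by gene order, 5 on each side, at any distance. Of these, 0 were higher and 1 was lower at an adjusted p-value under 0.05. This was the endocytosis gene *STON1* (-0.48, SE 0.13, limma adjusted p-value = 0.0449). Its call was lost on leaving out any single array except Empty vector replicate 3, and after either scaling named above. The other 9 had differences between -0.35 and 0.19, among them the bright *RTN4*, a reticulon of the endoplasmic reticulum, at 0.18 (SE 0.08) and *MTIF2*, a mitochondrial translation factor, at -0.16 (SE 0.09). Genes that lie between these neighbours without a named probeset are not analysed here.

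Around *ACYP1* the measured neighbours differed in both directions. *PGF*, placental growth factor of the VEGF family, was higher on each USF1 array, at 6.08, 6.17 and 6.05 against 5.41, 5.14 and 5.38 in Empty vector cells. On the log2 scale it rose by 0.79 (SE 0.10, limma adjusted p-value = 0.00422) and was called without each array in turn. *JDP2*, a repressor of AP-1 dependent transcription, fell by 0.43 (SE 0.09, limma adjusted p-value = 0.0228). The 8 other measured neighbours did not pass, at -0.36 to 0.33, the latter for *FCF1*, which was lowest on Empty vector replicate 1. Among these were the nearest ones, *EIF2B2*, a subunit of a translation initiation factor, at -0.06 (SE 0.11), and the kinase gene *NEK9* at 0.02 (SE 0.09). *TMED10*, a cargo receptor of the secretory pathway, stood at 0.08 (SE 0.09). *ZC2HC1C* shares 250 bases of the first *ACYP1* window on the opposite strand and is not analysed here. In all, 3 of 20 neighbours (15.0%) were called, where 14.1% of the 9586 named genes were, 5.18% upward and 8.89% downward, each gene at its probeset with the highest mean. Without USF1 replicate 1 or 3 or Empty vector replicate 2, *PGF* was the sole call among them. Calls over all probesets then fell from 1974 to 466, 369 and 574 in turn.

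Among the genes whose products form or use acyl phosphates, the P-type ATPases held the most that were measured. Of 36 genes for catalytic subunits of P-type ATPases, 17 were measured, of which 2 rose and 1 fell at an adjusted p-value under 0.05 (6 were higher and 3 lower at an unadjusted p-value under 0.05, where 34.5% of all named genes passed, 10.6% higher and 23.9% lower). The share called, 17.6%, was near the 14.1% of all named genes, and the median difference was 0.14 against -0.079 over all named genes. *ATP8A1*, a flippase that moves phospholipids between leaflets of a membrane, had values of 6.16, 6.27 and 6.20 in USF1 and 5.42, 5.77 and 5.41 in Empty vector arrays. The groups did not overlap, as in 36.1% of all probesets, and it rose by 0.68 (SE 0.11, limma adjusted p-value = 0.0109). *ATP2A3*, a calcium pump of the endoplasmic reticulum, rose by 0.36 (SE 0.09, limma adjusted p-value = 0.0358), and *ATP9B*, a flippase relative of the Golgi, fell by 0.62 (SE 0.11, limma adjusted p-value = 0.0156). Of the brightest ones that did not pass, the calcium pumps *ATP2A2* and *ATP2B1* had differences of 0.28 (SE 0.11) and 0.26 (SE 0.09), *ATP9A* one of 0.30 (SE 0.10) and *ATP8B2* one of -0.39 (SE 0.11). The call of *ATP8A1* was lost without USF1 replicate 3, that of *ATP9B* also without USF1 replicate 1 or Empty vector replicate 2, and of single arrays left out only Empty vector replicate 1 left *ATP2A3* called. Without USF1 replicate 3, 0 of these genes were called, and without Empty vector replicate 1, 5. Over all probesets the calls were 369 and 2028 in turn, against 1974 with all arrays. After either scaling of the arrays named above, 4 rose and 1 fell. Over all probesets 976 rose and 959 fell after the quantile normalization, and 1041 rose and 815 fell after centring. The catalytic subunits of the sodium pump are not analysed here.

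Of 19 partners and regulators of these pumps, 5 were measured. By limma, or by the methods' t-test under the same adjustment, 0 were called (1 was higher and 0 lower at an unadjusted limma p-value under 0.05). With 14.1% of all named genes called and 34.5% at an unadjusted p-value under 0.05, these counts over 5 genes are not read as a difference. That one was *FXYD6*, a modulator of the sodium pump, at 0.34 (SE 0.12, limma adjusted p-value = 0.0899), which passed without Empty vector replicate 1. The beta subunits *ATP1B3* and *ATP1B1* had differences of 0.04 (SE 0.10) and -0.13 (SE 0.09), *FXYD5* one of -0.14 (SE 0.13) and *TMEM30A*, the chaperone of flippases, one of 0.29 (SE 0.18). *TMEM30A* had its lowest value on Empty vector replicate 1, at 6.47 against 7.22 and 7.11 on the other Empty vector arrays.

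Of 15 genes of lower glycolysis, 6 were measured. At their brightest probesets again 0 were called by limma or by the methods' t-test under the same adjustment. At an unadjusted limma p-value under 0.05, 0 were higher and 1 lower. The shares of all named genes were the same 14.1% and 34.5%. *GAPDH*, which makes bisphosphoglycerate, had a difference of 0.20 (SE 0.10) at the control probeset with its highest mean, and *PGK1*, which uses it to form ATP, one of 0.16 (SE 0.13). *BPGM*, which diverts it to the regulator of hemoglobin, had one of -0.34 (SE 0.12, limma adjusted p-value = 0.106), and passed without USF1 replicate 2. *PKM* stood at 0.02 (SE 0.11) and *LDHB* at -0.02 (SE 0.09). At its other probesets *PGK1* had differences of 0.34 (SE 0.12), 0.29 (SE 0.12) and 0.19 (SE 0.10). Those of *GAPDH* had 0.24 (SE 0.10) and 0.19 (SE 0.10), and that of *LDHB* -0.01 (SE 0.09). Some of these *PGK1* and *GAPDH* probesets had an unadjusted limma p-value under 0.05, and none passed after adjustment.

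Of the enzymes that make or use carbamoyl phosphate, *CPS1*, the first enzyme of the urea cycle, had values of 5.10, 4.80 and 4.95 in USF1 and 5.40, 5.30 and 5.26 in Empty vector arrays. It fell by 0.37 (SE 0.10, limma adjusted p-value = 0.0492), just past the threshold, and lost its call without any 1 of the 6 arrays. *CAD*, which starts pyrimidine synthesis, had a difference of -0.24 (SE 0.15, limma adjusted p-value = 0.306). Of other small phosphohydrolases, the histidine phosphatase *PHPT1* stood at 0.17 (SE 0.09) and the low molecular weight phosphatase *ACP1* at -0.15 (SE 0.08), and neither passed. *OTC*, *LHPP* and *PGAM5* are not analysed here.

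**Figure D3:**
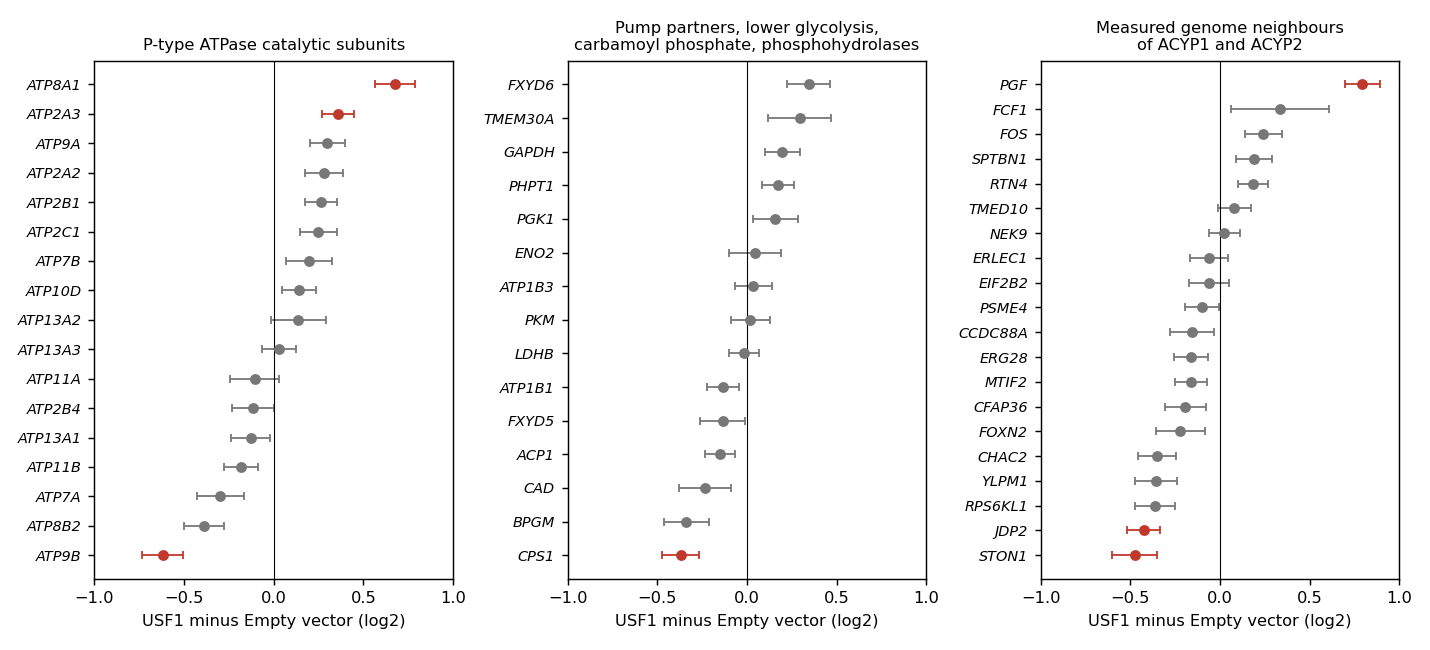
Log2 difference, USF1 minus Empty vector (horizontal axis), and its moderated SE (bars), with 1 line of the vertical axis per measured gene of the P-type ATPases, of the other lists around acyl phosphates and of the neighbours on the chromosome, red if past the limma threshold of 0.05 (adjusted). All points lie between -0.62 and 0.79.

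The genes whose values followed those of *ACYP2* most closely were ranked by Pearson's r over the 6 arrays, among the 68 single-gene probesets with an absolute log2 difference of at least 1. Since these arrays fall into 2 groups that differ in *ACYP2*, r is a measure of likeness here and carries no test, and 383 of all probesets had an r above 0.95 and 503 one below -0.95. The closest was *DRC8*, a gene of the ciliary dynein regulatory complex (r = 0.999, difference 2.11), with values of 5.76, 5.61 and 6.01 in USF1 and 3.74, 3.78 and 3.54 in Empty vector arrays. As for *ACYP2*, its USF1 replicate 2 was the lowest and replicate 3 the highest of the USF1 arrays. It was followed by *IL6R*, the interleukin 6 receptor (difference 1.31), *CSPG5*, a neural proteoglycan (1.01), the antisense transcript *DSP-AS1* (1.59) and *HS3ST3B1*, a heparan sulfate sulfotransferase (1.09), each with an r of at least 0.992. The most opposite were *ST7L* (difference -1.03), *DDB2*, which recognizes DNA damage (-1.49), *WASHC3* of the endosomal WASH complex (-1.01), the divergent transcript *DPH5-DT* (-1.35) and *HELLS*, a chromatin remodeler (-1.24), with an r between -0.998 and -0.986.

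For *ACYP1*, single-gene probesets of any difference were ranked in the same way, 15098 in all, of which many follow the same contrast. The closest were *NCOA6*, a coactivator of nuclear receptors (r = 0.999, difference -0.33), *TADA3* and *SUPT20H*, both subunits of histone acetyltransferase complexes (-0.49 and -0.55), *MTX1* of the mitochondrial outer membrane (-0.28) and *AATF* (-0.23). Each of them, as *ACYP1* itself, was highest on Empty vector replicate 1. *NCOA6* had values of 6.79, 6.74 and 6.70 in USF1 and 7.18, 7.03 and 7.01 in Empty vector arrays. The most opposite were *ZDHHC14* (difference 0.42), *SAT1*, an enzyme of polyamine breakdown (0.21), the histone demethylase gene *KDM6B* (0.22), *POMGNT1* (0.30) and *LIN9* (0.81), and each was lowest on Empty vector replicate 1. The part of that array in these likenesses was not tested.

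**Figure D4:**
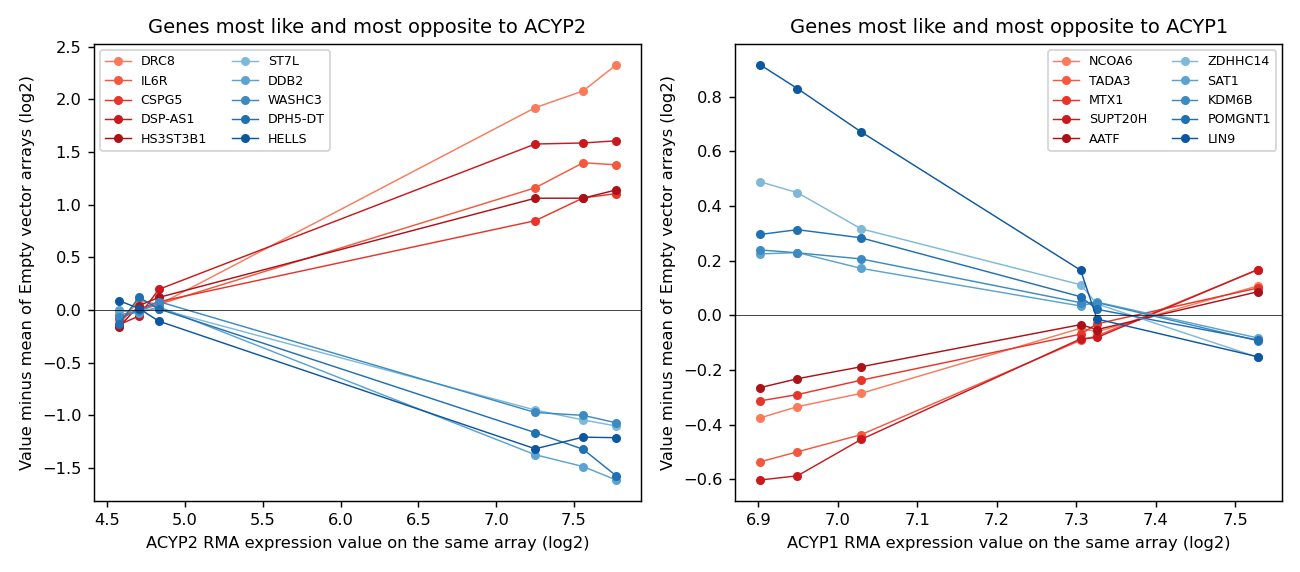
Value of each gene minus its mean over the Empty vector arrays (log2, vertical axis) against the RMA expression value (log2, horizontal axis) of *ACYP2* (left) or *ACYP1* (right) on the same array, 1 point per array and gene, for the 5 genes with the highest r (red) and the 5 with the lowest (blue). The USF1 arrays are the 3 rightmost on the left and the 3 leftmost on the right. Among the genes plotted on the left, *DRC8* comes nearest to *ACYP2* in size with a difference of 2.11.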

How the data were processed

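RNA of transfected HEK293T cells was hybridized to 6 Affymetrix arrays. Per the paper's methods and the labels, the authors made the deposited log2 values in R 2.8.0 with justRMA (background subtraction and quantile normalization) under a probe definition that masks mis-targeted probes, dropped probesets left with few probes or called absent on most arrays, and applied ComBat for batch, with batches that the sources used here do not name. Probesets were named through the platform annotation (15099 with 1 gene, 570 with several, 900 with none listed), updated by gene ID with RefSeq GRCh38.p14 (15098 matched), which also gave the promoter sequences. The log2 difference was fitted without covariates over all 16569 probesets by lmFit and eBayes of limma 3.58.1 (R 4.3.3, prior of 4.53 degrees of freedom), which was tested on simulated data, with Benjamini-Hochberg adjustment and a threshold of 0.05. A gene stands at its probeset with the highest mean. Named genes are the members, the called and the 4 brightest uncalled members of each gene list other than the markers, the carbamoyl phosphate and phosphohydrolase genes, and the 5 most and least alike. *FXYD6* and *BPGM* were named to complete a count, *FCF1* as the end of a range, *EIF2B2*, *NEK9*, *PSME4* and *SPTBN1* for their position, and the markers wherever measured. Members and lists were chosen with earlier results of these data known. The alternatives were other scalings, tests and filters, a replicate block and leaving out arrays. The number of arrays limits the precision.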

Additional observations from a re-analysis of the deposited data

How the results depend on the processing

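The difference of *ACYP2* lay between 2.70 and 2.96 and that of *ACYP1* between -0.47 and -0.36 over 12 alternatives each, all within 1 SD of the reported value. *ACYP2* had the largest rise under each of the 11 that were ranked. As *ACYP2* was chosen on this difference, its place is a description only. The replicate block and the removal of dim probesets cannot change the differences. Neither these nor centring can change which rise is the largest. Over all probesets, 1974 were called by limma, 36.2% of them higher, which was 50.4% after a further quantile normalization and 56.1% after centring each array on its median. With a t-test under the Benjamini-Hochberg adjustment, 160 were called at equal and 1 at unequal variances. The paper's list gives fractional degrees of freedom, which belong to the form with unequal variances. The paper's own list rests on unadjusted p-values of its t-test and is far longer, so these counts do not stand for it. With array weights 3688 were called, and 369 (without USF1 replicate 3) to 2222 (without USF1 replicate 2) without single arrays. Leaving out USF1 replicate 1 gave 466 calls, Empty vector replicate 2 gave 574 and replicate 3 gave 1110. Leaving out Empty vector replicates 1 and 2 together, chosen after seeing the data, gave 277. The cause of these shifts was not tested. Of the P-type ATPases, 3 were called, 5 under either scaling and 6 with array weights. With either adjusted t-test the count was 0, and without single arrays 0 to 5. Among pump partners and lower glycolysis genes 0 were called, 1 each with array weights, and 0 to 1 without single arrays. Of the neighbours 3 were called, 2 under either scaling and 6 with array weights. With either adjusted t-test the count was 0, though the paper's unadjusted list holds at least *PGF*. The count was 1 after removing the dimmest 25% of probesets, which leaves fewer genes tested, and 1 to 3 without single arrays. Same-numbered arrays deviated together only weakly (correlations of 0.0958, 0.246 and 0.129), though each of the 6 arrays correlated best with its own number in the other group, a hint from the data and not from the design. With a replicate block 2875 probesets and 5 neighbours were called, and the P-type ATPase, partner and glycolysis counts were 4, 0 and 0. The differences of both members cannot change under that block, as each replicate number holds 1 array of each group.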

Other observations

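Of the 6 measured marker genes of the HEK293 line, 1 (16.7%) was called at its brightest probeset, where 14.1% of all named genes were. This was *INA*, internexin, which fell by 0.39 (SE 0.08, limma adjusted p-value = 0.024), with values of 6.01, 6.11 and 5.98 in USF1 and 6.47, 6.41 and 6.39 in Empty vector arrays. *NEFL*, the light neurofilament chain, had a difference of 0.15 (SE 0.09, limma adjusted p-value = 0.3) at its brightest probeset, while its other probesets rose by 0.41 (SE 0.08, limma adjusted p-value = 0.021) and 0.38 (SE 0.09, limma adjusted p-value = 0.0312), so its probesets disagree on the call. *NEFM*, the medium chain, stood at 0.03 (SE 0.14, limma adjusted p-value = 0.901). The call of *INA* was lost without USF1 replicate 1 or 3 or Empty vector replicate 2 or 3, and each of these *NEFL* calls was kept without 2 of the 6 arrays, each left out in turn. *YLPM1*, a neighbour of *ACYP1*, was likewise called at 1 of its 3 probesets, at -0.39 (SE 0.09, limma adjusted p-value = 0.0342), and its brightest stood at -0.36 (SE 0.12, limma adjusted p-value = 0.0785). That call was kept without 2 of the 6 arrays, each left out in turn, and was lost after the further quantile normalization and after centring. These genes were chosen after their values were seen.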
